A study of Mus musculus with 2 samples.

Results

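The genes described here are 9 genes of iron and haem handling, Hmox1, Blvrb, Fth1, Ftl1, Slc40a1, Cp, Slc11a1, Tfrc and Cd163. They were chosen by name and found in both deposited count matrices by Ensembl identifier, as 9 of the 29413 identifiers that the matrices share. RNA of single immune cells was measured with a droplet-based 3′ kit in 2 libraries, 1 of niche cells and 1 of distal cells, both sorted from dissociated metastatic lungs of female Balb/c mice. All of these mice had received labelling 4T1 cells by vein 7 days earlier, and no group without such cells is analysed here. The line 4T1 comes from a mammary tumour of this mouse strain and grows readily in the lung. Labelling lines of this kind pass a fluorescent protein to the cells around them, so that neighbours of tumour cells (niche) can be sorted apart from the rest (distal). How many mice entered each library, and which gates were used, the sources used here do not say.

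Macrophages clear worn red cells and cell debris, and the haem they take up is opened by haem oxygenase to biliverdin, carbon monoxide and iron, after which biliverdin reductases make bilirubin. The iron is stored inside ferritin, a shell of heavy and light chains, or leaves the cell through ferroportin. Cells that are iron-replete or iron-poor set ferritin, ferroportin and the transferrin receptor largely after transcription, through iron regulatory proteins that bind a hairpin, the iron-responsive element, in their mRNAs.

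The hairpins are shown because they are the part of these mRNAs that iron regulatory proteins are known to bind: in the 5′ UTR they act on translation, which RNA counts do not show, and in the 3′ UTR of Tfrc on the stability of the mRNA. A search of GENCODE M21 untranslated regions on GRCm38 on the transcript strand, for a C, 5 bases, the loop CAGTGN and 5 bases able to pair with those before the loop, found them in 4 of the 9 genes. The 6 loop bases are in capitals and the sequences run 5′ to 3′ on the transcript strand.
Fth1, 5′ UTR, chr19:9982732-9982760, plus strand: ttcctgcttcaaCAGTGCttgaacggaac
Ftl1, 5′ UTR, chr7:45459779-45459807, minus strand: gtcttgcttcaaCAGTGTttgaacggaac
Slc40a1, 5′ UTR, chr1:45925465-45925493, minus strand: caacttcagctaCAGTGTtagctaagttt
Tfrc, 3′ UTR, chr16:32631219-32631247, plus strand: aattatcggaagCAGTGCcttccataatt
Tfrc, 3′ UTR, chr16:32631598-32631626, plus strand: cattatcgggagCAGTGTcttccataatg
Tfrc, 3′ UTR, chr16:32631663-32631691, plus strand: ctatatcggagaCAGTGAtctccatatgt
Tfrc, 3′ UTR, chr16:32631710-32631738, plus strand: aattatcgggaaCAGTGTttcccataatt
The same search matched a 5′ UTR in 31 of 20313 genes (0.153%) and a 3′ UTR in 128 of 20696 genes (0.618%). A match is a stretch of letters and says nothing of binding in these cells. Hmox1, Blvrb, Slc11a1, Cd163 and Cp held no match to these letters in their untranslated regions.

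Counts are of UMIs, the molecular identifiers that each stand for 1 captured RNA molecule. There were 22323465 of them over 3945 distal barcodes and 38036915 over 3242 niche barcodes. Filtering kept 3540 distal barcodes with a median of 5794.5 UMIs and 3081 niche barcodes with a median of 11197 UMIs. Without called doublets 3536 and 3080 cells remained, and 4 barcodes occurred in both libraries. Levels are given as CPM, the UMIs of a gene per 1000000 UMIs of all cells of a class, with exact 95% Poisson intervals. Ratios carry exact conditional 95% intervals, and all intervals cover counting error only. Each group was 1 library, so nothing could be tested and a difference between niche and distal is one between these 2 libraries, and software version, gene annotation and group cannot be told apart. A member was called different when at least 100 UMIs were counted over both sides and the whole interval lay beyond 1.5-fold.

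Cells were clustered without the 9 genes and without 57 other iron and haem genes, and clusters were named from marker genes. The class called monocyte/macrophage-like (318 distal and 1818 niche cells) carried 8 or 9 of the 12 interstitial macrophage markers per cluster at the level that naming required. Its largest distal share lay in a cluster led by Zmynd15, Ccl8 and C1qa (cluster 3, 129 cells), and its largest niche share lay in a cluster led by Ly6i, Cfb and Ly6c2 (cluster 1, 648 cells), so class values mix clusters in different shares. Interstitial macrophage-like cells (113 distal and 71 niche) carried 11 of those 12 markers, and the threshold that separated them was set after the clusters had been seen. Alveolar macrophage-like cells (1113 distal), neutrophil-like cells (362 distal and 29 niche), classical monocyte-like cells (46 distal) and non-classical monocyte-like cells (158 distal) were also compared. The niche library held 10 alveolar macrophage-like, 3 classical and 5 non-classical monocyte-like cells, too few for a level. Apart from these classes stood 206 distal and 264 niche cells in mixed clusters, 7 and 300 in a cluster of low UMI counts, and 35 and 62 in clusters whose leading genes went against a name. One of the latter, cluster 19, was led by Syngr1 and Gpnmb and held Trem2 (21 distal and 56 niche cells). Red cell RNA was scarce, with haemoglobin at 0.00105% of distal and 0.000107% of niche UMIs.

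Within monocyte/macrophage-like cells, 0 of the 7 members with enough UMIs were called between niche and distal, where 2.54% of all 8771 genes tested were called. Against monocyte/macrophage-like cells of the distal library, 2 of 5 tested members were lower in alveolar macrophage-like cells (28.1% of all genes tested were called in either direction and 7.47% were lower) and 2 of 5 were lower in classical monocyte-like cells (12.8% called, 7.19% lower). In neutrophil-like cells 1 of 6 was higher and 1 lower, where 57.4% of genes were called (15.5% higher and 41.9% lower). In interstitial macrophage-like cells of the niche library 2 of 7 were higher and 1 lower (6.38% called, 3.91% higher and 2.47% lower). In those of the distal library 1 of 6 was higher and 1 lower (9.42% called, 4.75% higher and 4.67% lower). The comparisons of the distal library share their monocyte/macrophage-like cells, and members that passed the minimum are not a fair sample of the 9, since low genes pass only where they are high.

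**Figure D1:**
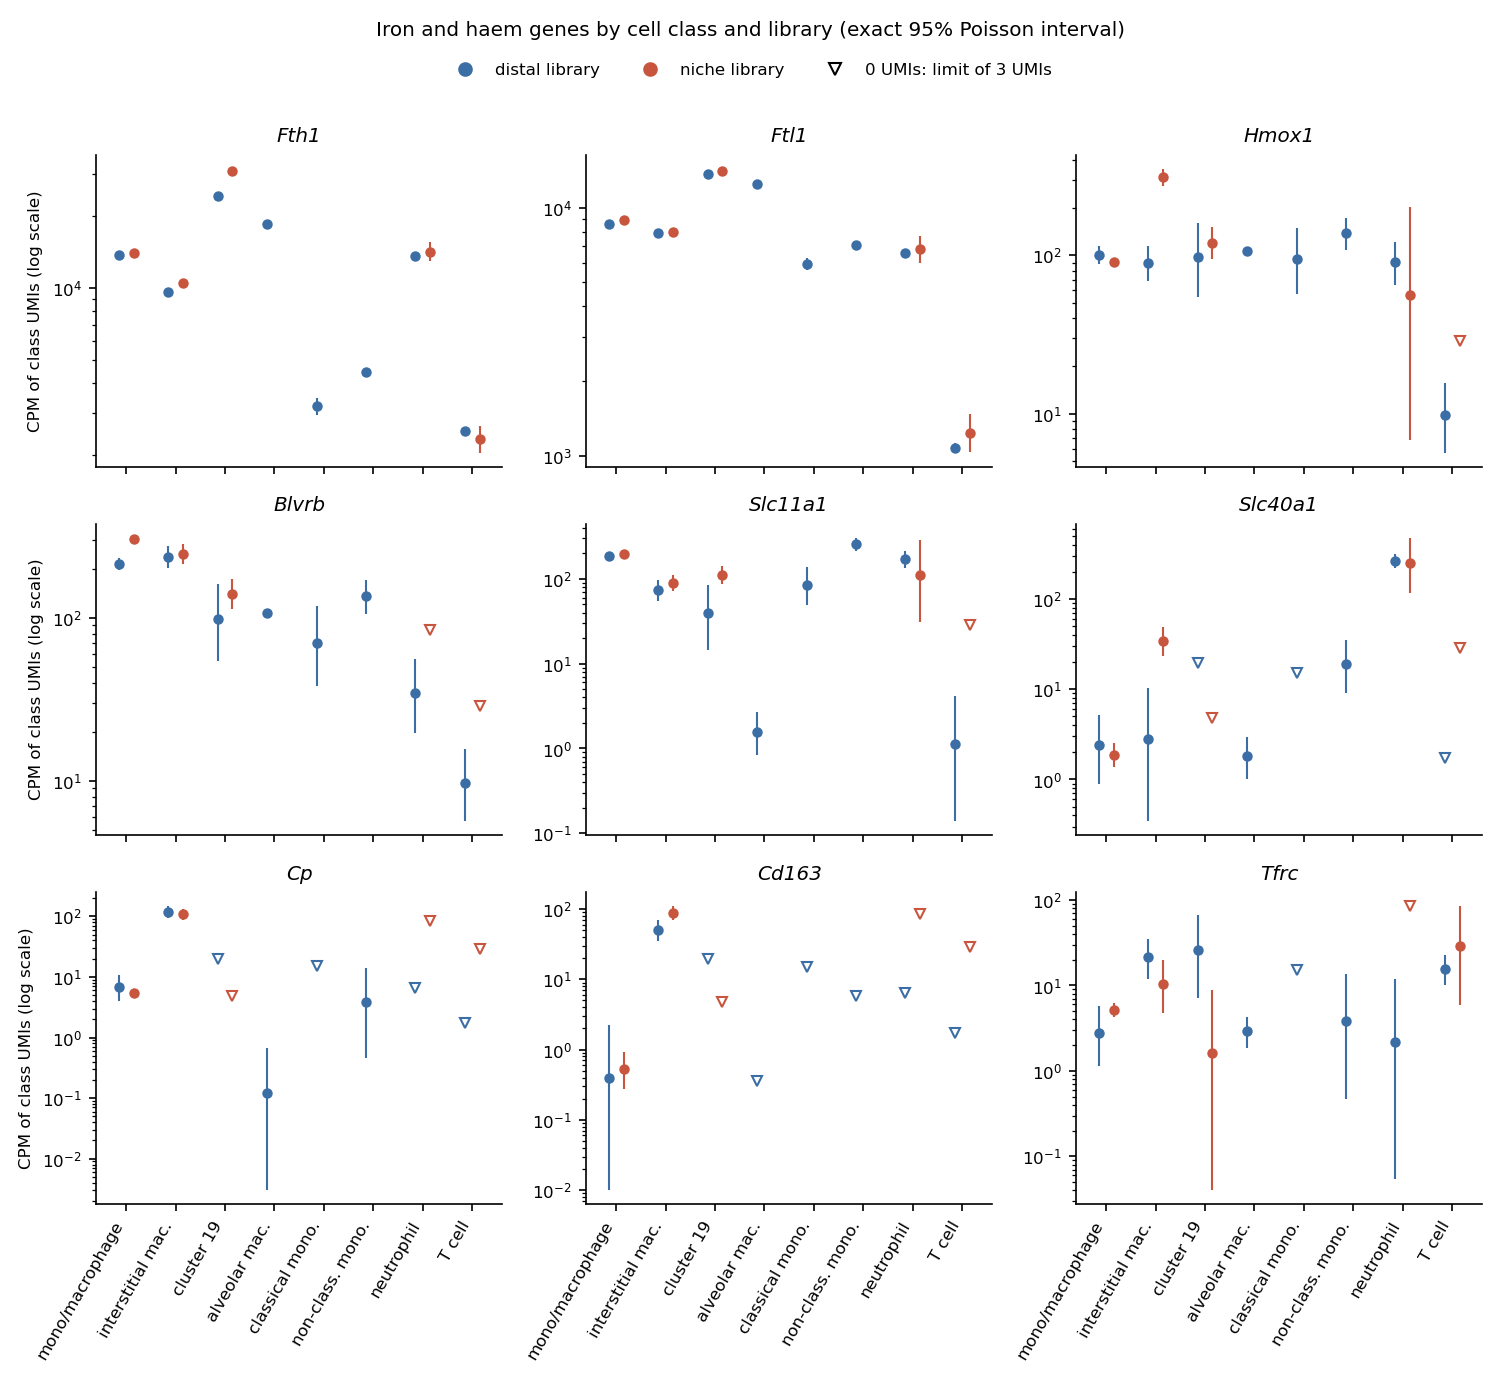
CPM of each of the 9 genes on a log axis, by cell class, in the distal (blue) and niche (red) library, with exact 95% Poisson intervals; open triangles mark classes with 0 UMIs at the limit that 3 UMIs would give. Slc40a1 stands highest in neutrophil-like cells of both libraries, Cp and Cd163 in interstitial macrophage-like cells, and the niche interstitial point of Hmox1 at 311 CPM rests on 1 cell that holds 61.9% of its UMIs.

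Fth1 (chr19:9980598-9985098) encodes the ferritin heavy chain, which oxidises iron as it enters the shell. It was level between the libraries in monocyte/macrophage-like cells and low in monocytes. In monocyte/macrophage-like cells it stood at 13756 CPM in the distal library (13611 to 13902) and 14093 CPM in the niche library (14045 to 14142), a log2 ratio of 0.03 (0.02 to 0.05). Classical monocyte-like cells of the distal library held 3200 CPM (2957 to 3458) and non-classical monocyte-like cells 4445 CPM (4266 to 4629). The classical value was 4.30-fold below that of the monocyte/macrophage-like cells, with a log2 ratio of -2.10 (-2.22 to -1.99), and kept its call under all 13 alternative settings, between -2.21 and -1.52. The non-classical value was 3.09-fold below. Neutrophil-like cells held 13660 CPM in the distal and 14238 CPM in the niche library, close to the monocyte/macrophage-like cells. The neutrophil comparison was shifted as a whole, with a median log2 ratio of -0.91 over the 3548 genes tested, and Fth1 stood 0.90 above that median, where it was called higher. Alveolar macrophage-like cells held 18543 CPM, a log2 ratio of 0.43 (0.41 to 0.45) over monocyte/macrophage-like cells that did not reach 1.5-fold and lay 0.15 above the median of all genes tested (0.28). Interstitial macrophage-like cells held 9622 CPM in the distal and 10546 CPM in the niche library. T cell-like cells, with 2533 CPM in the distal and 2335 CPM in the niche library, were the lowest class of at least 20 cells in either library. Not every other class was level: structural-like cells held 8432 CPM in the niche and 5184 CPM in the distal library. They were called higher, where 8.06% of all genes tested were, also without the highest cell of each side (0.71, 0.62 to 0.80). Conventional dendritic-like (7628 against 4984 CPM) and migratory dendritic-like cells (7546 against 5357 CPM) were higher in the niche library without a call.

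Ftl1 (chr7:45457944-45459884), the light chain that helps the iron core form, spanned a narrower range than Fth1 among macrophages, monocytes and neutrophils, though not over all classes. It stood at 8603 CPM in distal and 8880 CPM in niche monocyte/macrophage-like cells, a log2 ratio of 0.05 (0.03 to 0.07). Classical monocyte-like cells held 5919 CPM and non-classical ones 7047 CPM, with log2 ratios of -0.54 (-0.63 to -0.45) and -0.29 (-0.34 to -0.24) that were not called. Alveolar macrophage-like cells again stood highest among the named classes, at 12444 CPM. A gene for a near copy, Ftl1-ps1 on chromosome 13, is listed in both matrices, and reads that cannot be assigned between it and Ftl1 make both levels uncertain. In monocyte/macrophage-like cells the copy stood at 88.2 CPM (niche) and 152 CPM (distal) (-0.79, -0.94 to -0.62), a difference that Ftl1 did not share.

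The ratio of heavy to light chain UMIs differed between the classes. Capture can differ between the genes, so only differences of this ratio between classes are read. There were 1.60 Fth1 UMIs per Ftl1 UMI in distal (1.57 to 1.63) and 1.59 in niche (1.58 to 1.60) monocyte/macrophage-like cells. The ratio was 0.541 in classical (0.490 to 0.596) and 0.631 in non-classical monocyte-like cells (0.599 to 0.665), below every macrophage class. Monocytes that reached neither name lay between, at 0.851 in the distal and 1.04 in the niche library. Neutrophil-like cells had 2.07 and 2.10, alveolar macrophage-like cells 1.49 and interstitial macrophage-like cells 1.21 and 1.32. Migratory dendritic-like cells, which have matured and move towards lymph nodes, differed between the libraries, with 0.584 in distal (0.552 to 0.617) and 1.03 in niche cells (0.986 to 1.07). Counting the near copy with Ftl1 left the monocyte/macrophage-like ratio at 1.57 in both libraries.

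**Figure D2:**
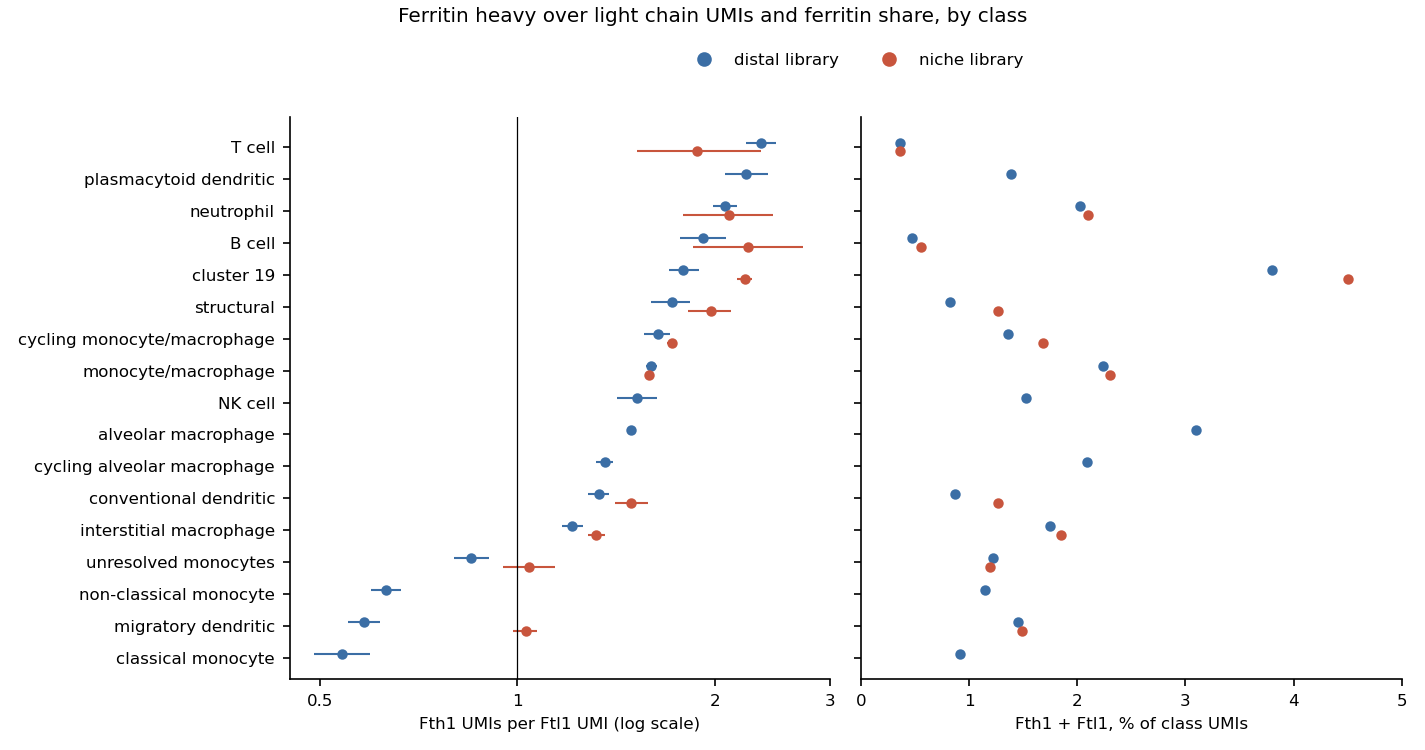
Left, Fth1 UMIs per Ftl1 UMI by class on a log axis with exact 95% intervals; right, both ferritin genes as a percent of all UMIs of the class, for the distal (blue) and niche (red) library. Classical monocyte-like cells have the lowest ratio, 0.541, and cluster 19 has the largest ferritin share, 3.80% and 4.50%.

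Cluster 19 carried the most ferritin RNA of all groups of cells with a level. Fth1 stood there at 24421 CPM in the distal (23646 to 25216) and 31042 CPM in the niche library (30607 to 31482), and Ftl1 at 13615 and 13990 CPM. Over monocyte/macrophage-like cells of the same library, Fth1 had a log2 ratio of 0.83 in distal and 1.14 in niche cells, and Ftl1 of 0.66 in both, all called higher (background 8.86% of genes called in the distal and 7.06% in the niche comparison). The ferritin genes together took 3.80% and 4.50% of its UMIs, against 2.24% and 2.30% in monocyte/macrophage-like cells. Blvrb was called lower there in the niche library, with 141 against 303 CPM (log2 ratio -1.09, -1.42 to -0.80). In the distal library it was lower without a call, with 97.8 against 214 CPM. Slc11a1 was called lower in the distal library, with 39.1 against 185 CPM (-2.13, -3.70 to -1.11), though from 6 UMIs on the side of the cluster. In the niche library it was lower without a call, with 110.4 against 196 CPM, from 69 UMIs. Hmox1 stood at 97.8 and 120.1 CPM, and Slc40a1, Cp and Cd163 had 0 UMIs in both libraries, which allows up to 19.6 CPM in the 21 distal cells. The cluster was kept apart only after its leading genes had been seen, and it holds 21 cells of the distal library.

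Ferritin also varied between cells within a class. In niche monocyte/macrophage-like cells the median cell had 12294 CPM of Fth1, and the 90th percentile (25567 CPM) was 3.88-fold the 10th (6586 CPM). The distal cells of the class gave 4.13-fold around a median of 11339 CPM. Of the 6 classes of macrophages, monocytes and neutrophils measured this way in the distal library, neutrophil-like cells spread most, with 7.51-fold, and classical monocyte-like cells least, with 2.65-fold. These spreads include counting error, which weighs most in neutrophil-like cells at a median of 1064 UMIs per cell.

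Hmox1 (chr8:75093621-75100589) encodes haem oxygenase 1, the inducible enzyme that opens the haem ring. In the distal library its level was similar in monocyte/macrophage-like cells (100.3 CPM, 88.3 to 114), alveolar macrophage-like cells (106, 99.1 to 113), classical monocyte-like cells (95.1, 57.3 to 149), neutrophil-like cells (90.4, 65.1 to 122) and interstitial macrophage-like cells (89.6, 68.8 to 115). Non-classical monocyte-like cells stood at 138 CPM (108 to 173), and each neighbouring pair of these 6 classes in the order of levels had overlapping intervals. Below these 6 lay cycling alveolar macrophage-like cells (71.7 CPM), monocytes that reached neither name (51.4) and cycling monocyte/macrophage-like cells (41.6). The last value came from 24 UMIs, 9 of them in 1 cell. The highest class of the library, structural-like cells at 154 CPM, had 53 of its 70 UMIs in 1 cell. T cell-like cells, with 9.72 CPM, and B cell-like cells, with 3.46 CPM, give the level that free RNA and stray calls can reach. Of monocyte/macrophage-like cells thinned to 1000 UMIs, 9.15% of distal and 7.66% of niche cells had an Hmox1 UMI (35.2% and 48.7% unthinned), against 1.10% of distal T cell-like cells.

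Between the libraries, Hmox1 of monocyte/macrophage-like cells stood at 90.8 CPM (niche) and 100.3 CPM (distal), a log2 ratio of -0.15 (-0.33 to 0.05). The clusters within the class did not share a direction. In cluster 3 the niche level was lower, with 72.9 against 136 CPM (-0.90, -1.16 to -0.63, called, where 3.44% of genes were called), and 1 cell held 39 of the 152 distal UMIs. In cluster 1 it was 120.2 against 65.8 CPM (0.85, 0.44 to 1.33) and in cluster 11, led by the interferon-response genes Rsad2, Ifit3 and Cmpk2, it was 149 against 85.1 CPM (0.78, 0.17 to 1.52), neither of them called. Without the cell that held most Hmox1 UMIs on each side, cluster 3 gave -0.58 (-0.87 to -0.27), which was no longer called, cluster 1 gave 0.81, and cluster 2 went from -0.24 to 0.26.

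Much of this RNA lay in few cells. The 31 niche cells with most Hmox1 UMIs, 1% of the library, held 31.7% of its 3354 UMIs, and the 36 such cells of the distal library held 29.2% of 1727 UMIs. For Fth1 the same share of cells held 7.18% in the distal and 5.39% in the niche library. For Slc11a1 it held 6.22% of 6284 niche UMIs. In the distal library, with 1182 UMIs, the Slc11a1 share at 1% of cells was also well below that of Hmox1. The genes came closer when more cells were taken. The 71 highest distal cells, 2% of the library, held 31.4% of Slc11a1 and 36.2% of Hmox1 UMIs. The rarer Slc40a1, Cp, Tfrc and Cd163 lay between 24.8% (Tfrc) and 87.0% (Cd163) in the niche library, and all 43 distal Cd163 UMIs were in the highest 1% of cells. Such a share is also high wherever UMIs are few. Cells with at least 20 Hmox1 UMIs, a limit set after the values were seen, numbered 13 of 3080 in the niche library, with 25.8% of its Hmox1 UMIs, and 7 of 3536 in the distal library, with 15.5%. The limit was not adjusted for depth, and niche barcodes were deeper, with a median of 11197 against 5794.5 UMIs. The numbers of such cells in the libraries are therefore not comparable. In the niche library 8 of the 13 were monocyte/macrophage-like and 2 were cycling cells of that class. The rest were 1 interstitial, 1 alveolar macrophage-like and 1 mixed cell. Monocyte/macrophage-like cells made up 1818 of all 3080 niche cells, so 8 of the 13 was near their share of the library. In the distal library 5 of the 7 were alveolar macrophage-like, against 31.5% of all distal cells. An Slc40a1 UMI was present in 4 of the 13 and in 2 of the 7, against 74 of all 3080 niche and 143 of all 3536 distal cells. Depth was not matched here, and a link between Hmox1 and Slc40a1 was not tested.

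**Figure D3:**
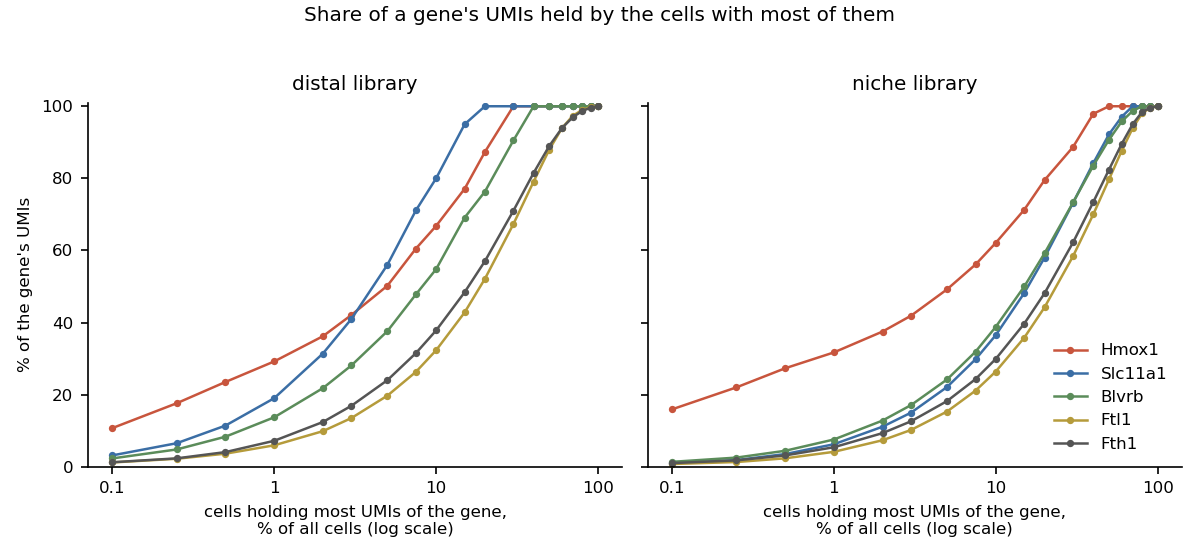
Percent of a gene's UMIs held by the cells with most of them, against the percent of all cells of the library on a log axis, for 5 members in the distal (left) and niche (right) library. At 1% of cells the Hmox1 curve is at 29.2% and 31.7%, while Fth1 is at 7.18% and 5.39%.

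In niche interstitial macrophage-like cells 1 cell held most of the class's Hmox1. The level was 311 CPM (275 to 350.1), against 90.8 CPM in niche monocyte/macrophage-like cells (log2 ratio 1.78, 1.59 to 1.96, called higher) and 89.6 CPM in distal cells of the same class (1.79, 1.39 to 2.21, called, where 4.43% of genes were). Of its 270 Hmox1 UMIs, 167 came from 1 cell, which also held 22 of the 30 Slc40a1 UMIs of the class in a total of 13643 UMIs. Without that cell the level was 120.4 CPM, and the log2 ratio over niche monocyte/macrophage-like cells was 0.41 (0.11 to 0.69), not called. Without the highest cell of each library, the ratio of niche to distal was 0.55 (0.08 to 1.05), also not called. In the distal library the class had -0.16 (-0.59 to 0.24) over monocyte/macrophage-like cells. The same cell held 110 Fth1, 176 Ftl1, 5 Cd163, 6 Blvrb and 44 C1qa UMIs.

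Blvrb (chr7:27447978-27466144), biliverdin reductase B, which also reduces flavins, stood above its distal level in the niche cells of every monocyte/macrophage-like cluster. In the class as a whole niche cells had 303 CPM and distal cells 214 CPM, with a log2 ratio of 0.50 (0.37 to 0.63) that stayed below the 1.5-fold limit for a call. The levels were 351 against 250.4 CPM in cluster 1, 335 against 222 in cluster 3 and 237 against 109 in cluster 11, none of them called. In cluster 2, with 239 against 195 CPM, the interval reached below 0 (0.28, -0.02 to 0.62). Cycling cells of the class gave 287 against 142 CPM, a fold of 2.01 (log2 interval 0.69 to 1.35) that was called higher, where 3.26% of genes were called. Interstitial macrophage-like cells, with 247 against 237 CPM, showed almost none of this (0.06, -0.24 to 0.36). Leaving out the highest cell of each side gave 0.52 for the class and 1.22 for its cycling cells. Blvrb was also higher in niche conventional dendritic-like (85.8 against 26.6 CPM), structural-like (189.7 against 79.2) and migratory dendritic-like cells (80.9 against 37.0). It was lower in niche B cell-like cells (100.1 against 151 CPM) and in monocytes that reached neither name (74.5 against 130.0). Niche T cell-like and neutrophil-like cells had 0 UMIs. All of these had too few UMIs for a call. Gene annotation and software version differ between the libraries in the same way as the groups, and cannot be told apart from them.

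Across cell types of the distal library, Blvrb was lower than in monocyte/macrophage-like cells in alveolar macrophage-like cells (107 CPM, log2 ratio -1.01, -1.16 to -0.85), classical monocyte-like cells (70.1, -1.56, -2.49 to -0.85) and neutrophil-like cells (34.4, -2.59, -3.46 to -1.92). The classical value rests on 14 UMIs and lost its call with finer clusters (Leiden resolution 2.0). In neutrophil-like cells the value (-1.69 after centring) was also below the shift of that comparison. The intervals of interstitial macrophage-like (237 CPM) and monocyte/macrophage-like cells overlapped, B cell-like cells held 151 CPM and T cell-like cells 9.72 CPM. Niche neutrophil-like cells had 0 Blvrb UMIs in 29 cells, which allows up to 84.2 CPM.

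**Figure D4:**
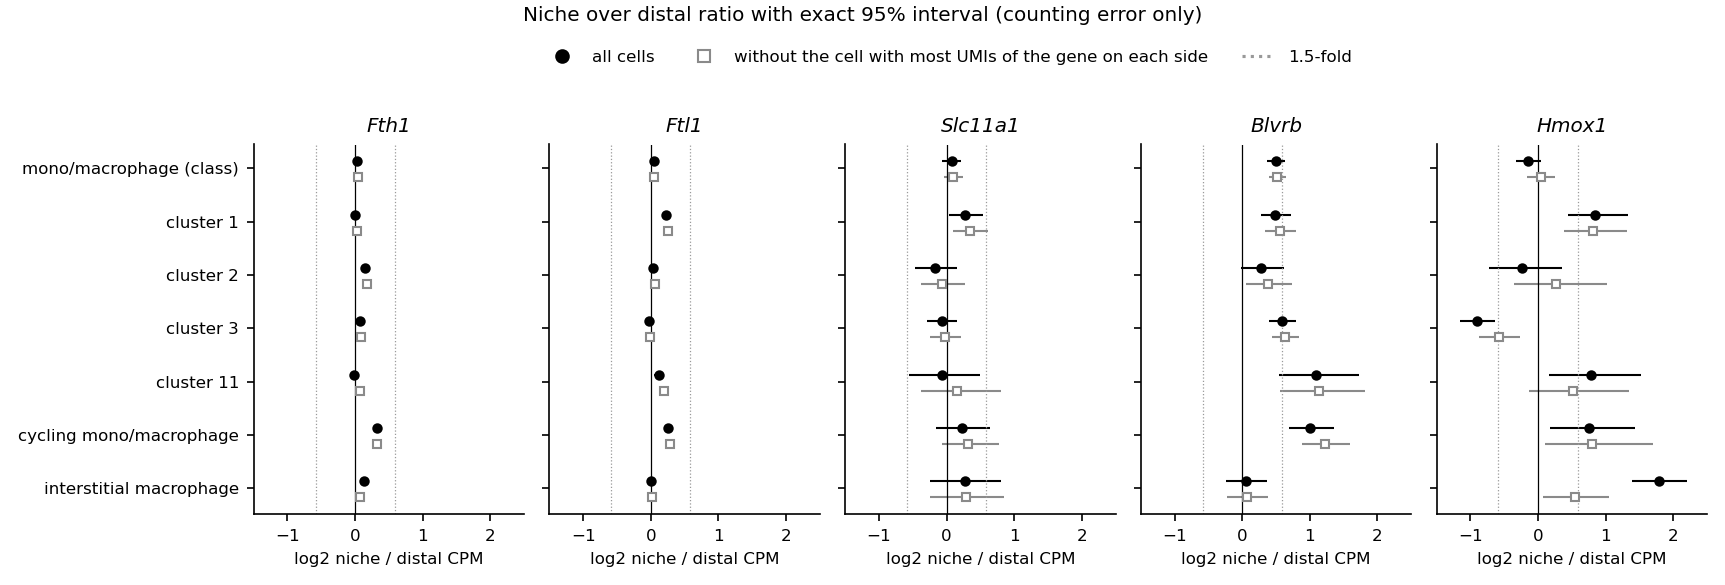
Log2 ratio of niche over distal CPM for 5 members in the monocyte/macrophage-like class, its 4 clusters, its cycling cells and interstitial macrophage-like cells, with exact 95% intervals, for all cells (black) and without the cell with most UMIs of the gene on each side (grey); dotted lines mark 1.5-fold. Fth1 stays within 0.35 of 0, Blvrb lies above 0 throughout, and Hmox1 goes from -0.90 in cluster 3 to 1.79 in interstitial macrophage-like cells, where it falls to 0.55 without 1 cell of each library.

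Slc40a1 (chr1:45908068-45926523), ferroportin, the known exporter of iron from mammalian cells, stood highest in neutrophil-like cells of both libraries. These held 265 CPM in the distal library (220.0 to 316, 123 UMIs in 91 of 362 cells) and 253 CPM in the niche library (116 to 479.8, 9 UMIs in 9 of 29 cells). Monocyte/macrophage-like cells held 2.40 CPM in the distal library (6 UMIs in 318 cells) and 1.89 CPM in the niche library (43 UMIs in 1818 cells). The log2 ratio within the distal library was 6.68 (5.62 to 8.26), and 7.58 relative to the shift of the neutrophil comparison. The highest distal neutrophil-like cell held 4 of the 123 UMIs. The ratio lay between 6.40 and 7.58 under all 13 alternatives, in 2 of which fewer than 100 UMIs were left for a call. Thinned to 1000 UMIs, 24.4% of 217 neutrophil-like cells had an Slc40a1 UMI (18.9 to 30.7), where 145 shallower cells were left out, against 0 of 317 monocyte/macrophage-like cells and 0 of 364 T cell-like cells. The neutrophil-like cells carried all 10 neutrophil markers at a summed 204161 CPM, and the 12 interstitial macrophage markers summed to 949 CPM, against 18800 CPM in monocyte/macrophage-like cells.

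Every other class with a level held less Slc40a1 than neutrophil-like cells in both libraries. Non-classical monocyte-like cells held 19.1 CPM, from 10 UMIs of which 9 were in 1 cell. Alveolar macrophage-like cells held 1.81 CPM and interstitial macrophage-like cells 2.84 CPM in the distal library. The 34.5 CPM of niche interstitial macrophage-like cells became 9.36 CPM without the cell named above. Mixed cluster 15, whose leading genes include the neutrophil genes Cxcr2, Retnlg and S100a8 beside the airway epithelial genes Scgb1a1 and Bpifa1, held 46.6 and 47.4 CPM. This cluster also carried 9 of the 12 interstitial macrophage markers. Its median cell held 5179 UMIs in the distal and 14508 in the niche library, against 1064 and 1228 in neutrophil-like cells. Classical monocyte-like, T, B and NK cell-like cells had 0 UMIs in the distal library.

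Cp (chr3:19957054-20009145), ceruloplasmin, a copper enzyme that oxidises exported iron so that transferrin can take it up, stood highest in interstitial macrophage-like cells. The level was 118 CPM in distal (94.0 to 146) and 109 CPM in niche cells of that class (88.5 to 134), against 6.80 and 5.40 CPM in monocyte/macrophage-like cells. The log2 ratios were 4.08 (3.35 to 4.96) and 4.34 (3.94 to 4.74), called in both libraries. The distal call rests on exactly 100 UMIs over both sides, the minimum, and was lost where a setting took UMIs away. Cp UMIs were spread over 32 of 113 distal and 36 of 71 niche cells, with at most 11 in 1 cell. All 17 distal UMIs of the monocyte/macrophage-like class lay in cluster 3, and 80 of the 123 niche UMIs did. Structural-like cells followed, with 44.0 CPM in the distal and 78.3 CPM in the niche library. In the niche library their interval overlapped that of interstitial macrophage-like cells, so the order there is open. Alveolar macrophage-like cells held 1 Cp UMI in 1113 cells, or 0.121 CPM, and neutrophil-like cells held 0. On the other strand Cp shares exonic bases with Hps3, and whether the counting used strand is not given in the sources used here.

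Cd163 (chr6:124304656-124330527), the scavenger receptor for haemoglobin bound to haptoglobin, was also highest there. Interstitial macrophage-like cells held 49.8 CPM in the distal (34.7 to 69.2, 35 UMIs in 17 of 113 cells) and 87.5 CPM in the niche library (68.9 to 109, 76 UMIs in 30 of 71 cells). Monocyte/macrophage-like cells held 1 UMI in 318 distal cells and 12 UMIs in 1818 niche cells. The log2 ratios were 6.40 (4.39 to 12.30) and 7.33 (6.49 to 8.39), from fewer than the 100 UMIs that a call needed. With a minimum of 20 UMIs both were called. Niche interstitial macrophage-like cells stood above distal ones by 0.80 (0.22 to 1.43), which was not called. Alveolar macrophage-like cells had 0 Cd163 UMIs in 1113 cells, which allows up to 0.362 CPM. Cd163 and Cp are among the 10 leading genes of this cluster, which was built without them.

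Slc11a1 (chr1:74375195-74386062), known as Nramp1, which moves iron and other metals out of the phagosome, separated alveolar macrophages from the other phagocytes. It stood at 1.57 CPM in alveolar macrophage-like cells (13 UMIs in 1113 cells) and 185 CPM in distal monocyte/macrophage-like cells (463 UMIs in 318 cells), a log2 ratio of -6.83 (-7.80 to -6.09) and a fold of 114. The alveolar level was near the 1.14 CPM of T cell-like cells, so it could not be told from background. Among the other named classes of the distal library the order ran from non-classical monocyte-like cells (256 CPM, 215 to 304) through monocyte/macrophage-like (185, 169 to 203) and neutrophil-like cells (170.0, 135 to 212) to classical monocyte-like (85.1, 49.6 to 136) and interstitial macrophage-like cells (73.9, 55.2 to 97.0). The intervals of the monocyte/macrophage-like and neutrophil-like cells overlapped, as did those of the neutrophil-like and classical and of the classical and interstitial cells. Interstitial macrophage-like cells were lower than monocyte/macrophage-like cells in both libraries, with 73.9 against 185 CPM in distal (-1.31, -1.77 to -0.91) and 89.8 against 196 CPM in niche cells (-1.11, -1.47 to -0.80). The distal difference lost its call at Leiden resolution 2.0 (range over alternatives -1.66 to -0.97). Between the libraries Slc11a1 stayed level in monocyte/macrophage-like cells, with a log2 ratio of 0.08 (-0.06 to 0.22).

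Tfrc (chr16:32608920-32632794), the transferrin receptor through which dividing cells take up iron, was sparse, with 151 UMIs in all distal and 250 in all niche cells. Monocyte/macrophage-like cells held 2.80 CPM (7 UMIs) in the distal and 5.13 CPM in the niche library (0.78, -0.21 to 2.22), which was not called. Cycling cells of this class held 6.94 and 9.29 CPM from 4 and 53 UMIs. Interstitial macrophage-like cells held 21.3 CPM in distal and 10.4 CPM in niche cells, from 15 and 9 UMIs. The highest level of the distal library, 56.2 CPM (29.9 to 96.1), was in plasmacytoid dendritic-like cells, the interferon-producing dendritic cells, from 13 UMIs. Its interval overlapped those of structural-like (37.4) and interstitial macrophage-like cells.

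The other 57 genes of the pathway, in 6 lists of haem synthesis, haem transport and breakdown, iron uptake, iron storage and export, regulators, and mitochondrial iron and iron-sulphur clusters, give the setting of these values. Between niche and distal monocyte/macrophage-like cells, 0 of the 41 with enough UMIs were higher and 2 were lower in the niche, where 1.45% of all genes tested were higher and 1.09% lower. These were Hp (haptoglobin, which binds free haemoglobin), with 24.9 against 57.6 CPM (-1.21, -1.47 to -0.93), and Trf (transferrin, the iron carrier of plasma), with 77.2 against 137 CPM (-0.83), or 1.78-fold lower. The median log2 ratio of the 41 was 0.03 and that of all genes tested 0.01. Markers of cells rich in Hp moved the same way: the 8 classical monocyte markers summed to 1477 CPM in niche and 2463 CPM in distal cells of the class, and the 10 neutrophil markers to 98.4 and 244 CPM. Most other marker lists were lower in niche cells too, such as alveolar macrophage (14.3 against 87.6 CPM), alveolar epithelial (72.4 against 145) and interstitial macrophage markers (15805 against 18800). The cycling, mammary carcinoma, erythroid, and basophil and mast lists were not lower. The part of any other cell type in the lower Hp and Trf was not tested. All 8 haem synthesis genes passed the minimum and none was called, with log2 ratios between -0.32 and 0.23.

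Among the same 57 genes, alveolar macrophage-like cells of the distal library had 13 higher and 4 lower of 41 tested, against 20.6% higher and 7.47% lower over all genes tested. The largest differences upwards were in Flvcr2 (6.81), a relative of the haem exporter Flvcr1, Lyrm4 (3.87), of the iron-sulphur assembly complex, Ncoa4 (3.25), the receptor that takes ferritin to the lysosome, and Slc22a17 (3.05), a lipocalin 2 receptor. Ncoa4 stood at 299 CPM in alveolar macrophage-like and 31.2 CPM in monocyte/macrophage-like cells. Lower were Hp (-3.11), Hfe (-2.11), Hif1a (-1.06) and Nfe2l2 (-0.77), the activator of oxidative stress genes. The median of the 41 was 0.60 and that of all genes tested 0.28.

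Neutrophil-like cells of the distal library had 5 of 23 tested pathway genes higher and 9 lower than monocyte/macrophage-like cells, against 15.5% higher and 41.9% lower over all genes tested, so the lower count is near the background. The higher ones included the granule proteins that withhold iron from microbes, Ltf (lactoferrin, 269 CPM against 0 UMIs, at least 224-fold higher with a floor of 3 UMIs over the class) and Lcn2 (lipocalin 2, 1943 CPM against 10 UMIs, 8.86), the metal reductase Steap4 (413 against 2.80 CPM, 7.11) and Hp (2905 against 57.6 CPM, 5.65). Lower were Hscb (-3.30), Blvra (-2.94), Glrx5 (-2.76) and Cisd1 (-2.42). Blvra encodes the other biliverdin reductase, and the others act in mitochondrial iron handling. The median of the 23 was -0.84 and that of all genes tested -0.91.

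Classical monocyte-like cells had 2 of 20 tested pathway genes higher and 0 lower than monocyte/macrophage-like cells, against 5.65% higher and 7.19% lower over all genes tested. Hp stood at 1157 against 57.6 CPM (4.33) and Trf at 506 against 137 CPM (1.89). In interstitial macrophage-like cells Trf was higher in both libraries, with 339.8 against 137 CPM in distal (1.31) and 355 against 77.2 CPM in niche cells (2.20), and Hif1a was lower in both (-1.30 and -1.69). Of the 41 genes tested in the niche library 2 were higher and 1 lower, against 3.91% and 2.47% of all genes. Hfe was the other higher one there (1.22). Of the 23 tested in the distal library 1 was higher and 3 were lower, against 4.75% and 4.67% of all genes. The lower ones were Hp (-2.88) and Alas1, the gene of the rate-limiting enzyme of haem synthesis (-1.29), and Hif1a.

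Genes most like each member were taken by Pearson r of log2(CPM + 1) over 24 points of class and library with at least 30 cells, among 3514 genes. These points share libraries, depth and cell lineage, so the values are a description. Slc40a1 was most like Steap4 (0.80), Ets2 (0.78) and Mmp9 (0.77). It reached 100 CPM only in distal neutrophil-like cells (265 CPM), and the next highest point held 34.5 CPM, so these values rest largely on that point. Slc11a1 was most like Pla2g7 (0.95), Lst1 (0.91) and Lrrc25 (0.90). Cp was closest to Stab1 (0.92), Sash1 (0.91) and Pmp22 (0.88). It reached 100 CPM only in interstitial macrophage-like cells (118 and 109 CPM), so its values rest largely on that class. Blvrb was closest to Unc93b1 (0.89), Lmo2 and Pkig (both 0.88). Hmox1 was closest to Plod3 (0.91), Lamp2 (0.91) and Lyz2 (0.90). Fth1 was closest to Il1a, Nampt and Clec4n (each 0.88), whereas Ftl1 was closest to its near copy Ftl1-ps1 (0.94), Creg1 (0.93) and Atp6v0b (0.92). Tfrc and Cd163 did not reach 100 CPM in any point and were left out.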

How the data were processed

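Gene-by-cell UMI count matrices of 2 droplet libraries were used as deposited. Per the file headers the count matrices came from Cell Ranger 3.0.2 (distal, 30149 gene rows) and 6.0.0 (niche, 32285 rows), whereas the submitters' processing notes list Bowtie2, RSEM, Seurat 4.1.1 and Cell Ranger 3.02, and the builds mm10 and GRCm38. Genes were joined by Ensembl identifier (29413 shared, 27462 with the same symbol).

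Barcodes under 200 genes or above 10% mitochondrial UMIs were dropped, 405 distal and 161 niche ones for their mitochondrial share. Scrublet called 4 and 1 doublets (0.0755%), too few to have worked, so doublets remain. Cells were clustered over both libraries with scanpy 1.11.5 and leidenalg 0.10.2 (2000 variable genes without members and pathway genes, 30 components, 20 neighbours, resolution 1.0) and named from marker lists. UMIs were summed per class and library. Ratios used 0.5 added UMI and exact conditional binomial intervals at 95% (scipy 1.17.1); shares of cells used thinning to 1000 UMIs and Clopper-Pearson intervals. A count of 0 was read as a limit of 3 UMIs. The call rule was tested on simulated class totals drawn from a Poisson distribution. These had no variation between cells, so the test says nothing of calls that rest on few cells.

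All 9 members were named whatever they showed. Of the 57 pathway genes, up to 4 called in each direction were named, and of like genes the 3 with the highest r among genes with at least 100 CPM. Members and lists were chosen with earlier results of these data known. Alternatives covered clustering genes and resolution, cell filters, doublet scores, scaling, cell weights, depth, minimum UMIs and fold. Leaving out the highest cell was added after seeing the data. The hairpin search used GENCODE M21 transcripts. Proteins were not used here.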

Additional observations from a re-analysis of the deposited data

Results flagged for a closer look

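Ftl1-ps1, the near copy of Ftl1 that is no member, held 3047 UMIs in distal and 3038 UMIs in niche cells. It was singled out because these counts lie outside the 9 genes and above the limit that a count of 0 allows. Reads shared between the copy and Ftl1 cannot be assigned with certainty. The copy stood at 152 CPM in distal and 88.2 CPM in niche monocyte/macrophage-like cells, against 8603 and 8880 CPM for Ftl1.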

How the results depend on the processing

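Of the 11 called member values, 11 kept their sign under every alternative run, and 26 of 79 counts of called members differed from the reported one, 18 of them by more than 1.5 times. The counts as reported were 0 for niche against distal, 2 for alveolar, 2 for neutrophil-like and 2 for classical monocyte-like cells, and 3 (niche) and 2 (distal) for interstitial macrophage-like cells. At Leiden resolution 2.0 the classical count was 1 and the niche interstitial count 5. With at most 5% mitochondrial UMIs and at least 500 genes, the neutrophil and distal interstitial counts were 1. Leaving out cells over 0.1% haemoglobin gave a distal interstitial count of 1. That setting removed 8 distal and 0 niche cells, and the cells were clustered anew. The niche interstitial class then held 146 cells, against 71 in the main setting and 44 at Leiden resolution 2.0. The classical class held 88 cells with members and pathway genes kept for clustering, against 46. Thinned to 1000 UMIs, the counts were alveolar 1, neutrophil 0, classical 1, niche interstitial 0 and distal interstitial 0. There Hmox1 (0.59) and Slc11a1 (-1.02) of niche interstitial cells still passed the minimum of 100 UMIs and were not called. Intervals beyond 2-fold gave alveolar 1, classical 1 and distal interstitial 1. A minimum of 20 UMIs gave niche interstitial 5 and distal interstitial 4. The added calls, all higher, were of Cd163 in both libraries, Slc40a1 in niche and Tfrc in distal cells, from few UMIs. The share of all genes called is given for the main rule only. Counts under the alternatives therefore have no background beside them and are not results about the members. For niche against distal, the mean of single-cell CPM gave 2 (Tfrc 0.79, Cp -0.88, read without an interval), and adding the cycling and interstitial clusters gave 2 (Cd163 -1.65, Cp -1.63). Without the cell with most UMIs on each side the distal interstitial count was 1. Hmox1 in niche interstitial cells lost its call under 4 of 12 alternatives (0.11 to 2.71); apart from leaving out that cell, the cause was not tested. On totals without mitochondrial, ribosomal protein and ferritin UMIs, Ftl1 in neutrophil-like cells was called lower (-0.66). Interstitial comparisons at Leiden resolution 0.5 were not run, since 0 cells took that name. No paired analysis was possible because each group is 1 library. Depth limits Slc40a1, Cp, Tfrc and Cd163 most.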
